A study of Homo sapiens with 6 samples.

Results

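Expression of 7 genes of selective autophagy and the lysosome was followed in SH-SY5Y cells, a human neuroblastoma line, on 6 Affymetrix Human Gene 2.0 ST arrays. The genes were SQSTM1, ATG16L1, MCOLN1, LAMP1, CTSD, CD68 and GPNMB, chosen by name with earlier results of these data known. They are 7 of the 14884 genes named on the array. Each was measured by 1 probe set, so no choice between probe sets was needed. The cells were given the solvent methanol (mock), securinine at 30 µM or 16F16 at 4 µM for 24 h, with 2 arrays per group. The series' design text calls both compounds inhibitors of protein disulfide isomerase, which helps proteins fold in the endoplasmic reticulum by making and exchanging disulfide bridges. All samples had the same medium. They are titled as biological repeats with no word on separate cultures, so p-values cover the spread between these samples, which may be technical, and every result is from 1 cell line.

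Autophagy encloses cytoplasm in a double membrane that fuses with the lysosome, where acid hydrolases digest the content. SQSTM1, also called p62, is a receptor that carries ubiquitin-tagged cargo into the forming vesicle and that also binds KEAP1, the repressor of the oxidant-response factor NRF2. ATG16L1 helps attach ubiquitin-like proteins to the growing membrane. MCOLN1 is a calcium channel of the lysosomal membrane, LAMP1 is an abundant glycoprotein of that membrane, and CTSD is an aspartic protease inside the lysosome, so ATG16L1 and CTSD are not membrane proteins of the lysosome. CD68 is a LAMP-related glycoprotein and GPNMB a transmembrane glycoprotein of endosomes, lysosomes and melanosomes. Both are widely used as macrophage markers. Many lysosomal genes carry E-box elements read by the factors TFEB, TFE3 and MITF.

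The RefSeq start windows of these genes (250 bases before and 50 after the annotated start, assembly GRCh38.p14) are shown because they separate the 7 genes by sequence. All 7 genes matched, SQSTM1 with 3 windows and the others with 1 each. The 250 bases before the start follow for the genes with matches, 5′ to 3′ on the gene's strand. In the first group, LAMP1 (chr13:113296989-113297238, plus strand), MCOLN1 (chr19:7522374-7522623, plus strand) and CTSD (chr11:1763928-1764177, minus strand), capitals mark GTCACGTG on either strand, an E-box with the flank found in many lysosomal genes.
LAMP1: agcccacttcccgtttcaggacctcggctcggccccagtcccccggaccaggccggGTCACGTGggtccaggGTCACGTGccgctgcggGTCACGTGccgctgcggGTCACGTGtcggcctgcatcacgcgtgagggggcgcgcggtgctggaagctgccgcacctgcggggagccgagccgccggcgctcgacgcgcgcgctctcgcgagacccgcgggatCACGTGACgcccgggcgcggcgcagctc
MCOLN1: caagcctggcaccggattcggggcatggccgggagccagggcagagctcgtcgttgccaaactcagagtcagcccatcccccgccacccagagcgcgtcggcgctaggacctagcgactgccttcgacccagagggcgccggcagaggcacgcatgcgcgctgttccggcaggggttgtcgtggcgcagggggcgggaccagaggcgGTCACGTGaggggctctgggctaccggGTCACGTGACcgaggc
CTSD: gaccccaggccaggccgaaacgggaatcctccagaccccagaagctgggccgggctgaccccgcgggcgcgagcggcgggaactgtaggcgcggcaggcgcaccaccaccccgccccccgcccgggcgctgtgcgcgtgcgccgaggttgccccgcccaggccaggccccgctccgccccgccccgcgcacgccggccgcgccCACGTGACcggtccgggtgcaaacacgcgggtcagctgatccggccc
LAMP1 held 6 cores CACGTG in the whole window, 5 of them before the start and the other across it. MCOLN1 held 2 and CTSD 1. Every one of these cores was part of GTCACGTG on at least 1 strand. In the windows of CD68 (chr17:7579388-7579637, plus strand) and GPNMB (chr7:23246525-23246774, plus strand) capitals mark the AP-1 element TGAGTCA and the E-box variant CATGTG, each on either strand.
CD68: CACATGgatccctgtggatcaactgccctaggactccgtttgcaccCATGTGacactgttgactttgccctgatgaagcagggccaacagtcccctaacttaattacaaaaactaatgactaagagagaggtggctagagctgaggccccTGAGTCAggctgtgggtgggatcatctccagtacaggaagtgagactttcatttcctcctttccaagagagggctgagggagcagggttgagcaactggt
GPNMB: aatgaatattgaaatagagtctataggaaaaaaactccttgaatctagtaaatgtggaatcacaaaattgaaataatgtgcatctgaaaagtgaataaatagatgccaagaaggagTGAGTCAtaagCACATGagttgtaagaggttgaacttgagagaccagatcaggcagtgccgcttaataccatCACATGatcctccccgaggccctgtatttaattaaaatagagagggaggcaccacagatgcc
Each of these windows held 1 TGAGTCA and 2 CATGTG, and 0 CACGTG. Of all 35116 windows of this length, 7.26% held CACGTG, 2.4% GTCACGTG, 11.1% CATGTG and 4.95% TGAGTCA. The antioxidant response element core TGACNNNGC, in 13.3% of all windows, was found in LAMP1 (1, overlapping its first E-box match), CTSD (2) and CD68 (1). The window of ATG16L1 and the 3 windows of SQSTM1 held 0 of the 5 motifs searched, which says only that these letters are not in those windows. The motifs were chosen with the windows in view, and a match describes the sequence and is not evidence of binding.

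**Figure D1:**
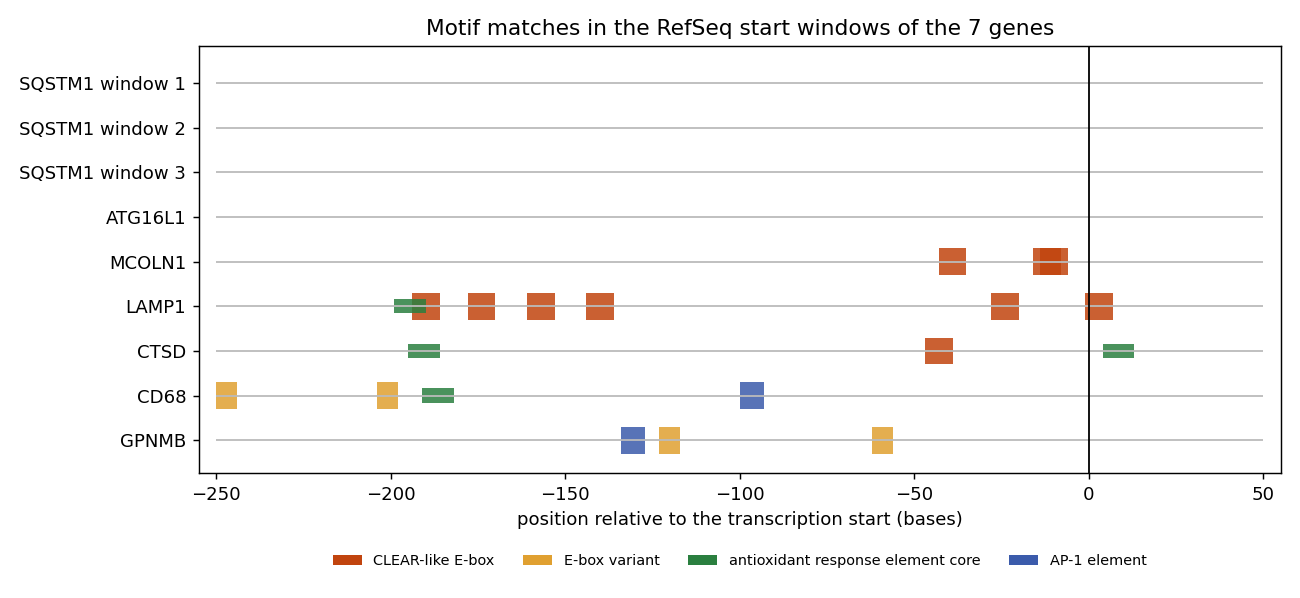
Motif matches on either strand in the start windows of the 7 genes, by position in bases from the annotated start (vertical line), with 1 line per window. GTCACGTG matches (CLEAR-like E-box) lie in LAMP1, MCOLN1 and CTSD, and TGAGTCA (AP-1 element) in CD68 and GPNMB.

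The arrays were alike in overall level, with medians of 4.17 to 4.23 on the log2 scale over 53617 probe sets. Pearson correlations across probe sets were 0.986 to 0.990 within groups and 0.979 to 0.986 between groups. Of 12 markers of noradrenergic neuroblastoma cells, 10 were measured, and all 10 lay above the array median on both arrays of every group. Their summed signal was 14.22 to 14.25 on the log2 scale in mock, 13.76 to 13.86 with securinine and 14.02 to 14.06 with 16F16. Of the 10, 5 fell with securinine and 2 with 16F16 in limma, where 10.6% and 0.779% of all genes were called lower. Among them was CHGA, a secretory granule protein, at -2.22 and -1.24. DDC also fell in both comparisons, at -2.05 and -1.06, and both calls with 16F16 were lost without any 1 array. With securinine GATA2 (-1.01), DBH (-0.59) and STMN2 (-0.485) fell too. PHOX2A (-0.31), TH (-0.16), GATA3 (-0.15), ISL1 (-0.05) and HAND2 (-0.04) did not pass. Fitting all probe sets left 3 called lower with securinine and 0 with 16F16. Fitting only the 2 groups compared left 5 and 0. The part of these falls in the results that follow was not tested. In RNA of a whole culture, fewer cells of a type and less RNA per cell cannot be told apart.

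The first comparison was securinine against mock. With securinine all 7 genes rose, and the 2 arrays of each group did not overlap for any of them. In limma over all genes 8.4% of 14884 genes were called higher, at an adjusted p under 0.05, and 27.0% had both securinine arrays above both mock arrays. The 7 genes were chosen with earlier results of these data known. These and the later shares of all genes therefore describe the 7 genes and do not test them. The median difference was 0.93 over the 7 genes and -0.04 over all genes, on the log2 scale. Differences below are log2 differences, with the standard error (SE) of the limma fit and n = 2 arrays per group, and adjusted p-values are from limma with Benjamini-Hochberg adjustment over all genes.

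SQSTM1, the cargo receptor, measured 6.77 and 6.83 in mock, 8.26 and 8.30 with securinine and 7.85 and 7.78 with 16F16. The 3 groups were fully separated, with mock lowest and securinine highest. With securinine SQSTM1 was 1.475 ± 0.0796 higher, 2.78-fold (adjusted p = 0.0018), a rise that ranked 28th from the top among the 14884 genes.

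ATG16L1, which acts in vesicle formation, measured 7.29 and 7.30 in mock, 7.82 and 7.80 with securinine and 7.33 and 7.25 with 16F16. Both securinine arrays stood above the other 4, while the 16F16 arrays lay on either side of the mock arrays. The rise with securinine was 0.51 ± 0.077, 1.43-fold (adjusted p = 0.011).

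The lysosomal channel MCOLN1 measured 7.947 and 8.001 in mock, 8.94 and 8.87 with securinine and 8.46 and 8.65 with 16F16. LAMP1 measured 9.13 and 9.09 in mock, 9.80 and 9.81 with securinine and 9.43 and 9.55 with 16F16. For both membrane genes the order was mock, 16F16, securinine, with no overlap between groups, and the 16F16 arrays differed more from each other than the arrays of the other groups did. MCOLN1 rose by 0.93 ± 0.0965, 1.90-fold (adjusted p = 0.0048), and LAMP1 by 0.70 ± 0.0825, 1.62-fold (adjusted p = 0.0064), with securinine.

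The protease gene CTSD measured 10.02 and 9.99 in mock, 10.36 and 10.34 with securinine and 10.29 and 10.36 with 16F16. The 2 treated groups overlapped, and all 4 treated arrays stood above both mock arrays. The rise of CTSD with securinine, 0.34 ± 0.077 or 1.27-fold (adjusted p = 0.034), was the smallest of the 7.

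CD68 measured 5.83 and 5.99 in mock, 8.10 and 8.09 with securinine and 6.57 and 7.17 with 16F16. The securinine arrays were 0.013 apart and the 16F16 arrays 0.60 apart. The rise with securinine was 2.18 ± 0.20, 4.54-fold (adjusted p = 0.0040), ranking 9th from the top of all genes. GPNMB measured 4.71 and 5.33 in mock, 7.06 and 7.16 with securinine and 5.53 and 5.90 with 16F16. Mock replicate 1 was the lowest array for GPNMB, 0.63 below mock replicate 2. GPNMB rose by 2.09 ± 0.23, 4.26-fold (adjusted p = 0.0054), ranking 10th. Against all probe sets of an array, CD68 lay at percentiles 72.2 and 73.8 in mock and 89.5 and 89.4 with securinine, and GPNMB at 58.3 and 66.6 in mock and 82.7 and 83.4 with securinine.

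**Figure D2:**
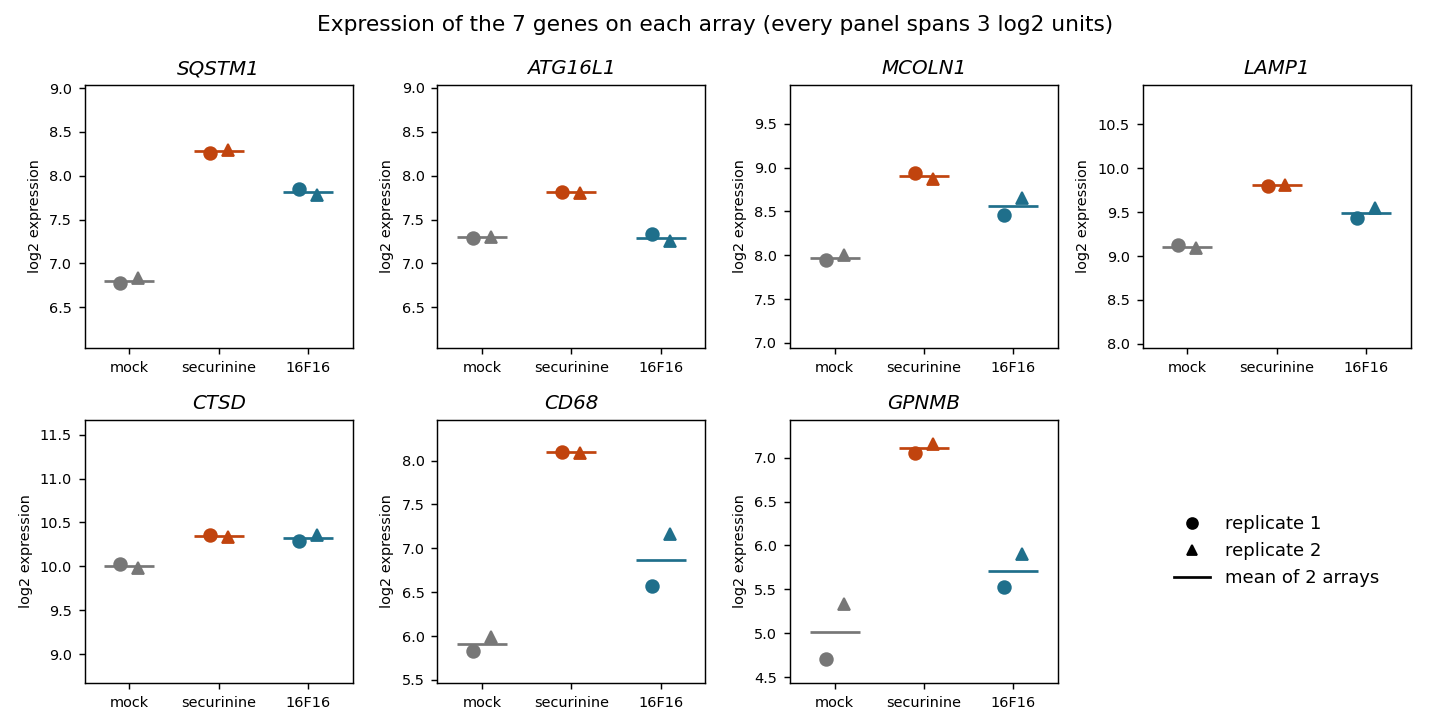
Log2 expression of each gene on each of the 6 arrays (circles replicate 1, triangles replicate 2), with the mean of 2 arrays as a line, and with every vertical axis spanning 3 log2 units. The securinine arrays stand above the mock arrays in all 7 panels, by 0.34 (CTSD) to 2.18 (CD68) on average.

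CD68 and GPNMB are also macrophage markers, so 17 further macrophage and monocyte markers were listed. Of these, 8 had a probe set with 1 gene symbol and were read. PTPRC, ITGAM, AIF1, FCER1G, CD74, HLA-DRA, MRC1, C1QA and C1QB had none and were not read. TYROBP and SPI1 lay above the array median on all 6 arrays, MARCO did on all but securinine replicate 1, CD14 on both securinine arrays, 1 of 2 16F16 arrays and 0 of 2 mock arrays, and MSR1, a scavenger receptor, was inside the lowest quartile on all 6 arrays. The summed signal of the 8 was 7.09 in mock, 7.14 to 7.21 with securinine and 6.998 to 7.018 with 16F16, on the log2 scale. CD14, a receptor for bacterial lipopolysaccharide, rose with securinine by 0.57 ± 0.14 (adjusted p = 0.038; 0.074 to 0.16 without a mock or securinine array), and the other 7 did not pass, between -0.20 and 0.22. These 7 markers were CD163 at -0.20, MARCO at -0.17, SPI1 at 0.04, TYROBP at 0.05, CSF1R at 0.06, LYZ at 0.07 and MSR1 at 0.22. The part of macrophages or monocytes in the rises of CD68 and GPNMB was not tested. None of 5 melanocyte markers passed with securinine in limma, 2 of them had an unadjusted p under 0.05, and the pigment-cell factor MITF was at -0.36 ± 0.11. With 16F16 1 of the 5 rose, PMEL, a melanosome protein and relative of GPNMB, which measured 5.69 and 5.75 in mock, 5.38 and 5.49 with securinine and 6.404 and 6.365 with 16F16. PMEL rose by 0.67 ± 0.082 against mock (adjusted p = 0.035; 0.093 to 0.22 without an array) and was higher than with securinine by 0.95 ± 0.082 (0.0096; lost without 16F16 replicate 1 or either securinine replicate, at 0.062 to 0.078), whereas GPNMB was lower with 16F16 than with securinine. The summed signal of the 5 was 6.57 to 6.59 in mock, 6.39 to 6.43 with securinine and 6.92 to 6.97 with 16F16, on the log2 scale, and the part of these markers in the values of GPNMB was not tested.

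Leaving out an array kept the 7 rises in direction, and 4 to 7 were called. Without mock replicate 2 the calls of LAMP1 (adjusted p = 0.051), ATG16L1 (0.068) and CTSD (0.15) were lost, and the calls of ATG16L1 and CTSD were lost without mock replicate 1 (0.07 and 0.12) and without either securinine replicate (0.066 and 0.14 for replicate 1, 0.057 and 0.12 for replicate 2).

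The second comparison was 16F16 against mock, which shares the mock arrays with the first. SQSTM1 rose with 16F16 by 1.01 ± 0.080, 2.02-fold (adjusted p = 0.026), ranking 25th from the top, and the other 6 genes did not pass. In limma 0.719% of all genes were called higher in this comparison, so calls were rare. With 16F16, 6 of the 7 genes had both arrays above both mock arrays, against 24.1% of all genes, and the same 6 had an unadjusted p under 0.05 with a positive difference, against 9.78% of all genes.

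Of the genes that did not pass, CD68 was at 0.96 ± 0.20 (adjusted p = 0.076), GPNMB at 0.70 ± 0.23 (0.18), MCOLN1 at 0.58 ± 0.0965 (0.057), LAMP1 at 0.38 ± 0.0825 (0.082) and CTSD at 0.32 ± 0.077 (0.10). ATG16L1 was at -0.005 ± 0.077 with a 95% interval of -0.20 to 0.19, so a change of about the size measured with securinine, 0.51, lay outside its interval. The intervals of the other 6 genes lay above 0, and that of GPNMB was the widest, from 0.12 to 1.27. The difference of CD68 was 0.66 without 16F16 replicate 2 and 1.26 without 16F16 replicate 1, and that of GPNMB was 0.38 without mock replicate 1 and 1.01 without mock replicate 2.

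The call of SQSTM1 with 16F16 was lost without any 1 of the 6 arrays, at adjusted p-values of 0.13 and 0.083 (without 16F16 replicates 2 and 1), 0.19 and 0.17 (without mock replicates 1 and 2) and 0.087 (without either securinine replicate), while its difference stayed between 0.97 and 1.05. Leaving out a securinine array changes only the estimate of the spread here, as does fitting mock and 16F16 without securinine (adjusted p = 0.087).

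The third comparison set 16F16 at 4 µM against securinine at 30 µM, so compound and dose cannot be told apart. With 16F16, 4 of the 7 genes were lower than with securinine, against 3.96% of all genes called lower, and 6 had both 16F16 arrays below both securinine arrays, against 26.4% of all genes. GPNMB was at -1.40 ± 0.23 (adjusted p = 0.026), 2.63-fold lower, and CD68 at -1.23 ± 0.20 (0.025), 2.34-fold lower. ATG16L1 was at -0.52 ± 0.077 (0.021) and SQSTM1 at -0.46 ± 0.080 (0.029). MCOLN1 at -0.34 ± 0.0965 (0.083) and LAMP1 at -0.315 ± 0.0825 (0.071) did not pass. CTSD was at -0.03 ± 0.077, with a 95% interval of -0.22 to 0.17, and its direction turned with median centring (0.005) and with quantile normalization (0.064). In all, 0 members were called without 16F16 replicate 1, securinine replicate 1 or securinine replicate 2, with 5, 5 and 6 at an unadjusted p under 0.05 in limma, and 1 was called without 16F16 replicate 2 (CD68) or without either mock replicate (GPNMB).

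**Figure D3:**
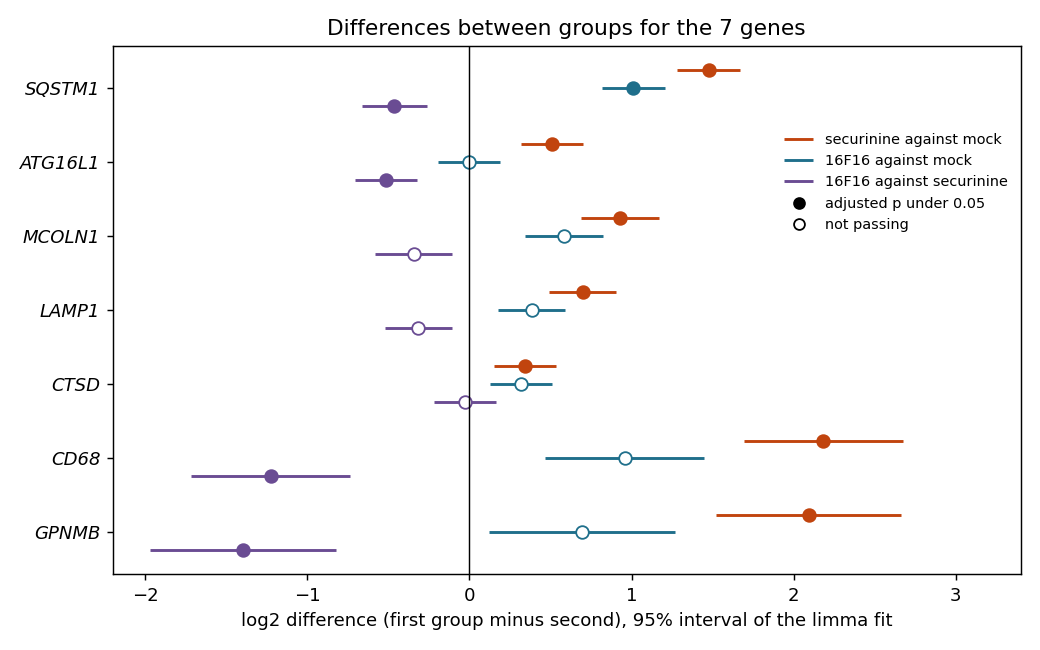
Log2 differences of the 7 genes in the 3 comparisons (first group minus second) with 95% intervals of the limma fit, where filled points have an adjusted p under 0.05. The securinine differences of all 7 genes and the 16F16 difference of SQSTM1 are filled on the right, and ATG16L1 with 16F16 sits at -0.005.

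The wider pathway was read from lists of autophagy and lysosome genes, 225 genes beside the 7, of which 135 were measured. The lists too were chosen with earlier results of these data known. Shares of all genes set beside their counts therefore describe the lists and do not test them. With securinine 39 of them rose and 9 fell (28.9% and 6.67%), where 8.4% and 10.6% of all genes did, and their median difference was 0.09 against -0.04 over all genes. With 16F16 7 rose and 0 fell (5.19% and 0%), where 0.719% and 0.779% of all genes did. None of the 23 subunits and accessory proteins of the vacuolar proton pump is analysed here. In 16F16 against securinine 7 were higher and 15 lower (5.19% and 11.1%), where 5.55% and 3.96% of all genes were. The 48 calls with securinine fell to 17 and 18 when mock replicate 1 or 2 was left out, and to 18 and 25 when securinine replicate 1 or 2 was, and the 9 lower calls among them to 1, 2, 1 and 1. The 22 calls in 16F16 against securinine became 0 without 16F16 replicate 1 or either securinine replicate (41 to 54 genes at an unadjusted p under 0.05 in limma), 4 without 16F16 replicate 2 and 7 without either mock replicate. The 7 calls with 16F16 became 0 without any 1 of the 6 arrays, with 25 to 30 genes at an unadjusted p under 0.05 in limma.

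Of 9 other autophagy receptors measured, 1 rose and 1 fell with securinine. WDFY3, a large scaffold that helps clear aggregates, rose by 0.71 ± 0.074, and BNIP3, a mitochondrial receptor, fell by 0.38 ± 0.088 (adjusted p = 0.036). The call of BNIP3 was lost without any mock or securinine array (0.10 to 0.15), with all probe sets (0.12) and with the replicate block (0.052), so that 0 receptors were then called lower, and that of WDFY3 was kept without any 1 array. The other 7 did not pass with securinine, and TAX1BP1, a ubiquitin-binding receptor like SQSTM1, was at 0.31 (adjusted p = 0.051). With 16F16 0 of these 9 passed in limma, with 2 at an unadjusted p under 0.05, BNIP3 at -0.47 and WDFY3 at 0.21. In 16F16 against securinine WDFY3 was lower (-0.50 ± 0.074, adjusted p = 0.021), a call lost without any 1 array. TAX1BP1 at -0.33 ± 0.081 (0.063) did not pass there.

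Of 35 other genes of autophagosome formation, 11 rose and 0 fell with securinine. Fitting all probe sets gave 4 and 0, and the replicate block 7 and 1. Quantile normalization gave 10 and 1, and an intensity trend 16 and 2. DRAM1, a p53-induced lysosomal membrane protein, rose by 2.00 ± 0.17 from a level below the array median in mock (3.775 and 3.396). TP53INP1 rose by 1.49 ± 0.078 and RUBCN, which restrains vesicle maturation, by 0.89 ± 0.093. With 16F16 RUBCN rose by 0.91 ± 0.093 (adjusted p = 0.028) and TP53INP1 by 0.59 ± 0.078 (0.038), and DRAM1 at 0.89 ± 0.17 did not pass. RUBCN measured 7.20 and 7.33 in mock, 8.11 and 8.20 with securinine and 8.12 and 8.23 with 16F16, so its treated groups overlapped. In 16F16 against securinine TP53INP1 (-0.89 ± 0.078, adjusted p = 0.0096) and DRAM1 (-1.11 ± 0.17, 0.023) were lower. Both calls were lost without 16F16 replicate 1 or either securinine replicate, and that of DRAM1 also without 16F16 replicate 2. ATG12 (0.39 ± 0.086) and MAP1LC3B (0.79 ± 0.13), ubiquitin-like proteins of the ATG16L1 pathway named here after their values were seen, rose with securinine. Their calls were lost without mock replicate 1, mock replicate 2 or securinine replicate 1 (0.079 to 0.14 and 0.057 to 0.079), and that of ATG12 also without securinine replicate 2 (0.13). Of the relatives of MAP1LC3B, GABARAP rose by 0.37 ± 0.089 (adjusted p = 0.038). MAP1LC3A (0.375), GABARAPL1 (0.08), GABARAPL2 (0.06) and MAP1LC3C (-0.015) did not pass. Nor did ATG3 (0.04), ATG7 (0.07) and ATG10 (-0.405), enzymes of the same pathway. ATG5, the partner of ATG16L1, was at 0.24 (adjusted p = 0.15). These genes too were named after their values were seen.

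Of 24 other lysosomal membrane genes, 7 rose and 0 fell with securinine. Fitting all probe sets gave 4 and 0, and the replicate block 6 and 0. Quantile normalization gave 7 and 1, and an intensity trend 9 and 1. HGSNAT, an acetyltransferase of heparan sulfate breakdown, rose by 0.865 ± 0.082 with securinine and 0.78 ± 0.082 with 16F16. SLC66A1, an exporter of cationic amino acids, rose by 0.79 ± 0.076 and 0.53 ± 0.076. These 2 were the calls of the list with 16F16 (adjusted p = 0.028 and 0.043). The tetraspanin CD63 measured 7.89 and 7.87 in mock, 8.57 and 8.61 with securinine and 7.95 and 7.96 with 16F16. CD63 rose by 0.71 ± 0.074 with securinine and was lower with 16F16 than with securinine (-0.63 ± 0.074, adjusted p = 0.014). LAMP2, the relative of LAMP1 and named after its values were seen, rose by 0.53 ± 0.081 with securinine (lost without mock replicate 1, mock replicate 2 or securinine replicate 1, at 0.065 to 0.073) and was at 0.07 ± 0.081 with 16F16. The lower level of CD63 was called without either mock replicate and lost without any of the other 4 arrays (0.053 to 0.089).

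Of 35 other lysosomal enzymes and activators, 9 rose and 6 fell with securinine. Without mock replicate 1 or 2 these counts were 3 and 1 or 2 and 2, and without securinine replicate 1 or 2 they were 3 and 1 or 6 and 1, so that CTSC alone of the 6 stayed called lower whichever array was left out. The protective protein CTSA rose by 0.88 ± 0.078 and the sialidase NEU1, its partner in a complex, by 0.79 ± 0.090. CTSC, an aminopeptidase that activates serine proteases of immune cells, fell by 1.20 ± 0.075 (adjusted p = 0.0019), from 8.69 and 8.68 in mock to 7.49 and 7.47. The other genes that fell, named after their values were seen, were CTSH (-0.93 ± 0.20), SIAE (-0.72 ± 0.11), CREG1 (-0.64 ± 0.13), CTSF (-0.47 ± 0.12) and LGMN (-0.41 ± 0.087). With 16F16 0 of the 35 passed in limma and 13 had an unadjusted p under 0.05. SCPEP1 at 0.42 ± 0.079, NEU1 at 0.47 ± 0.090 and the progranulin gene GRN at 0.395 ± 0.080 had the lowest p-values. In 16F16 against securinine 5 of the 35 were higher and 2 lower. SIAE was higher with 16F16 than with securinine (0.71 ± 0.11, adjusted p = 0.022), as was CTSC (0.86 ± 0.075, 0.0096). CTSA was lower (-0.56 ± 0.078, adjusted p = 0.019), a call lost without any 1 array. The call of SIAE in that comparison was lost without any 1 array (0.051 to 0.12), and that of CTSC without 16F16 replicate 1 or either securinine replicate (0.062 to 0.078).

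Of 32 regulators of these genes, 11 rose and 2 fell with securinine, and 3 rose and 0 fell with 16F16. With securinine, fitting all probe sets gave 9 and 0, and the replicate block 10 and 0. Quantile normalization gave 11 and 2, and an intensity trend 11 and 4. The 2 that fell were RRAGD and FOXO1 (-0.34 ± 0.088, adjusted p = 0.048), and the call of FOXO1 was lost without any 1 array. TFE3, a transcription factor of lysosomal genes, measured 7.37 and 7.35 in mock, 8.76 and 8.71 with securinine and 7.997 and 8.0 with 16F16. It rose by 1.37 ± 0.075 with securinine (adjusted p = 0.0018) and 0.64 ± 0.075 with 16F16 (0.033). FNIP2, a partner of folliculin in the control of TFE3, rose by 1.26 ± 0.074 and 0.53 ± 0.074, and the leucine sensor SESN2 by 1.52 ± 0.11 and 0.78 ± 0.11. The related factors TFEB (-0.17 ± 0.19) and MITF did not pass with securinine, and with 16F16 TFEB was at 0.37 ± 0.19 and MITF at 0.08 ± 0.11. Folliculin itself, FLCN, rose by 0.85 ± 0.090 with securinine, and the GTPases RRAGC and RRAGD, which sense nutrients at the lysosome, went opposite ways (0.96 ± 0.11 and -0.41 ± 0.085). KEAP1, the binding partner of SQSTM1, rose by 0.65 ± 0.077 and NFE2L2, which encodes NRF2, by 0.56 ± 0.093. With 16F16 KEAP1 was at 0.49 ± 0.077 (adjusted p = 0.052) and NFE2L2 at 0.05 ± 0.093. FLCN, RRAGC, KEAP1, NFE2L2, FOXO1, TFEB and MITF were named after their values were seen. In 16F16 against securinine FNIP2 (-0.73 ± 0.074, adjusted p = 0.011) and TFE3 (-0.73 ± 0.075, 0.011) were lower and RRAGD (0.58 ± 0.085, 0.021) higher. Each of these calls was lost without 16F16 replicate 1 or either securinine replicate, and that of RRAGD without any 1 array. With securinine the calls of NFE2L2 and RRAGD were lost without any mock or securinine array (0.052 to 0.085 and 0.078 to 0.13) and that of KEAP1 without mock replicate 1 (0.05), while those of TFE3, FNIP2, SESN2, FLCN and RRAGC were kept without any 1 array.

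**Figure D4:**
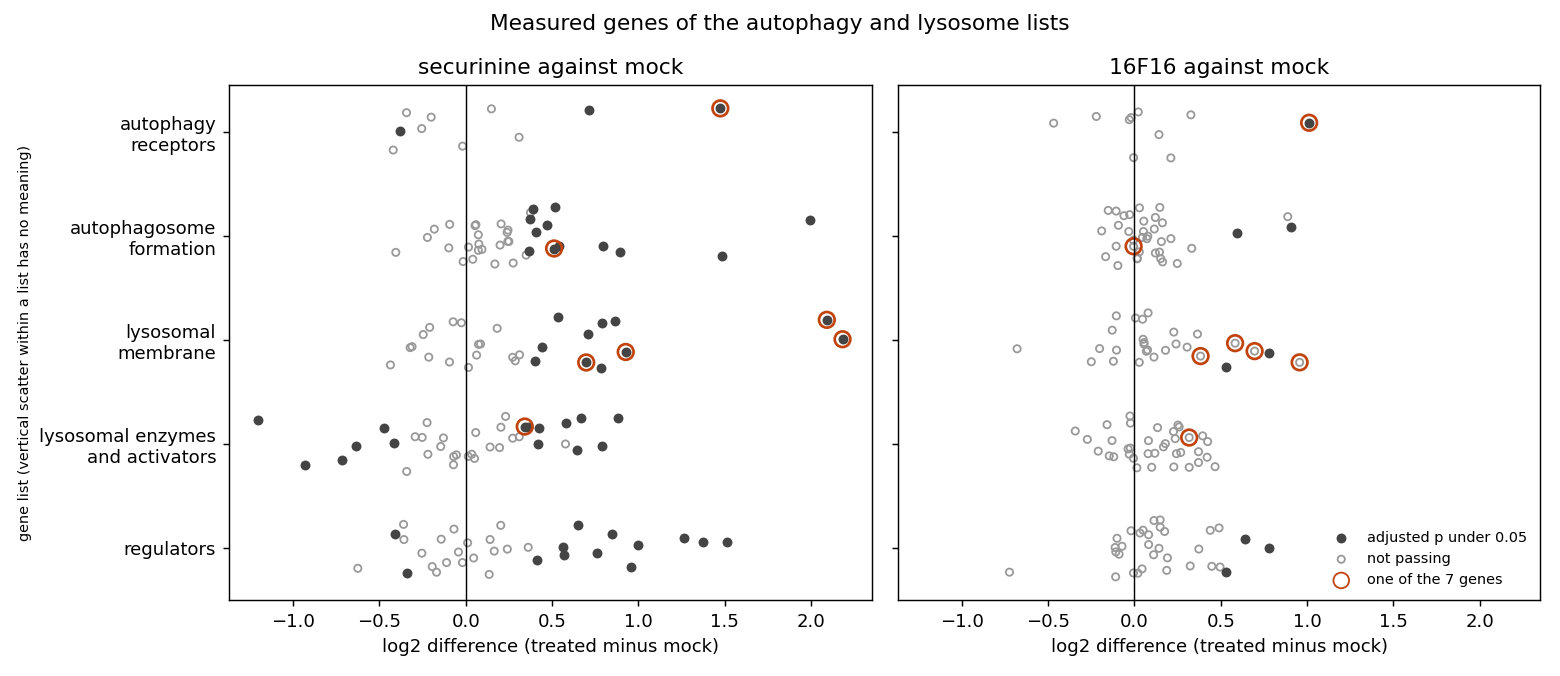
Log2 differences of the measured genes of 5 lists (points) with securinine and with 16F16 against mock, where filled points have an adjusted p under 0.05 and rings mark the 7 genes. With securinine the filled points of vesicle formation and of the lysosomal membrane all lie above 0, and those of the lysosomal enzymes lie on both sides.

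CACGTG was also counted in the start windows of the wider lists. Of 106 measured genes with a window beside the 7, 21 (19.8%) held it, where 1187 of all 10749 tested genes with a window did. With securinine 7 of these 21 rose (33.3%), and of the 85 without it 23 rose (27.1%). Among all tested genes these shares were 11.3% and 8.99%. The lists differed in this, on few genes: with and without CACGTG, 2 of 3 and 3 of 15 lysosomal membrane genes rose, 3 of 8 and 2 of 17 lysosomal enzymes, 0 of 3 and 9 of 25 genes of vesicle formation, 2 of 6 and 9 of 22 regulators, and 0 of 1 and 0 of 6 receptors. Of the 7 genes, LAMP1, MCOLN1 and CTSD held CACGTG and rose by 0.70, 0.93 and 0.34 with securinine. Of the 4 without it, CD68, GPNMB and SQSTM1 rose by more than these and ATG16L1, at 0.51, by less than LAMP1 and MCOLN1.

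The genes nearest to each of the 7 in pattern were found among 13202 genes by the root mean square difference of log2 values over the 6 arrays, each gene centred on its mean. CD68 was nearest to the kinase PLK2 (0.18) and the protease inhibitor TFPI2 (0.18), with GPNMB next (0.19). GPNMB was nearest to CD68 (0.19) and then PLK2 (0.24). SQSTM1 was nearest to the kinase SIK2 (0.083) and the noncoding transcript N4BP2L2-IT2 (0.084). ATG16L1 was nearest to ANKRD17 and the nuclear pore gene NUP98 (both 0.026), and CTSD to SEC61A1, a subunit of the endoplasmic reticulum translocon (0.016), and IAH1 (0.030). MCOLN1 was nearest to SPRY4, an inhibitor of growth factor signalling (0.032), and the kinase PDPK1 (0.052). LAMP1 was nearest to CHPF2 (0.032) and CSGALNACT2 (0.034), both enzymes of chondroitin sulfate synthesis. These distances depend on the size of a gene's changes, and small ones are common among genes that changed little.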

How the data were processed

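RNA of 6 SH-SY5Y samples was hybridised to 1 array each. The authors deposited log2 expression values per probe set, which per the submitters' processing notes came from RMA, with limma also listed. RMA equalises the arrays, so a shift common to most genes cannot be seen. Genome build: not given in the sources used here. Detection calls were not used. Of 53617 probe sets, 16098 (30.0%) had 1 gene symbol in a platform annotation table, and the others were left out. All 16098 matched RefSeq by Entrez identifier. The brightest of several probe sets was taken, which left 14884 genes.

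Limma (version 3.58.1 in R 4.3.3; lmFit, eBayes) was fitted with group as the only term to all 6 arrays, with 3 residual and 2.68 prior degrees of freedom. P-values were two-sided and adjusted over all 14884 genes, and the median SE was 0.11. The number of arrays limits the precision. The script was tested on simulated data. Members and lists were chosen with earlier results of these data known. The naming rule took all 7 genes and, per list and comparison, the 3 genes with the lowest p. For likeness it took the 2 nearest genes per member, leaving out small RNA genes, uncharacterised loci, olfactory receptors and pseudogenes. Start windows came from RefSeq (GRCh38.p14). Alternatives were 9 processing settings and 6 left-out arrays.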

Additional observations from a re-analysis of the deposited data

How the results depend on the processing

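Over 15 alternatives (9 settings and 6 left-out arrays), 251 of 315 differences of the 7 genes kept their direction and side of the threshold, 51 fell short of it, 8 newly passed and 5 turned. For the genes that the naming rule took from the lists, each in the comparison that named it, 418 of 555 held. Of the rest, 131 fell short, 6 newly passed and 0 turned. Genes named after their values were seen were counted only where the rule took them. The turned values were near 0: ATG16L1 with 16F16 against mock was at 0.034 without 16F16 replicate 2 and 0.002 without mock replicate 2 (from -0.045 over left-out arrays), and CTSD with 16F16 against securinine was at 0.064 (quantile normalization), 0.005 (median centring) and 0.011 (without 16F16 replicate 1; from -0.062 over left-out arrays). With securinine the 7 member calls ranged from 4 to 7 over left-out arrays and the 48 pathway calls from 17 to 40. Fitting limma to all probe sets adds tests and estimates the variance prior anew, so unadjusted p-values changed too. This fit gave 5 member calls and 24 pathway calls with securinine, with ATG16L1 at 0.053 and CTSD at 0.13 lost. In the 16F16 comparisons it gave 0 member and 0 pathway calls. There 6 members and 26 or 53 pathway genes still had an unadjusted p under 0.05 in limma. An intensity trend in the variance prior gave 6 member and 31 pathway calls with 16F16 against mock, the 31 being 23 higher and 8 lower. With 16F16 against securinine it gave 55 pathway calls, 14 higher and 41 lower. Leaving out dim genes gave 2 member calls with 16F16. Fits of the 2 groups compared, which have fewer samples, gave 0 member and 0 pathway calls with 16F16 against mock (6 and 30 at an unadjusted p under 0.05), and 1 and 7 with 16F16 against securinine. Left-out arrays gave 0 member and 0 pathway calls with 16F16 against mock (5 to 6 and 25 to 30 at an unadjusted p under 0.05), and 0 to 1 and 0 to 7 with 16F16 against securinine. The cause of the changes with the intensity trend was not tested. Replicate numbers are shared by the groups, but deviations of same-numbered arrays correlated at only -0.05 to 0.038 across genes, so the numbers were not taken as pairs. With the replicate block, 6 member calls (CTSD at 0.068 was lost) and 33 pathway calls were made with securinine against mock, 0 member and 0 pathway calls with 16F16 against mock (6 and 29 at an unadjusted p under 0.05 in limma), and 2 and 8 with 16F16 against securinine. The signal over background of a probe set could not be judged by a detection call.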
